A study of Mus musculus with 6 samples.

Results

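The effect of losing Klf15 in the young heart was followed in the cardiac ventricles of mice at postnatal day 10 (P10), by setting 3 RNA-seq libraries of Klf15 knockout mice (KO) against 3 libraries of wild-type mice (WT). These 6 libraries were selected by their labels, as the P10 KO and P10 WT samples, and are 6 of the 18 libraries of the series and 2 of its 6 sample groups. The test took all 13032 of the 24391 gene entries whose normalized read count averaged at least 10 over the 18 libraries, whatever their change at P10. Both P10 groups were on the C57BL/6 background and were fed without restriction, and the RNA was total RNA of whole ventricular tissue. The other 4 groups, Klf15 KO and WT ventricles at 4 weeks (4w) and 20 weeks (20w) on the same background, with 3 libraries each, served to compare the P10 effect with that in older hearts. The sources used here do not give how the knockout was made, which cells lost the gene, the sex of the mice or any sequencing batch. Nothing in the labels ties a library to an animal, so the p-values below measure the spread between libraries, which may be partly technical. The series is titled for KLF15, Wnt signalling and Shisa3, and the comparison at P10 asks what Klf15 loss changes early in postnatal life.

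KLF15 belongs to the Krüppel-like zinc finger transcription factors, which bind GC-rich and CACCC-type sequences. In heart and skeletal muscle it is known for driving enzymes of branched-chain amino acid and lipid use and for restraining growth genes. In mice the days after birth are also the time when cardiomyocytes leave the cell cycle, turn from glucose towards fatty acids and replace the slow beta myosin heavy chain Myh7 with the alpha form Myh6.

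The P10 libraries held 12615972 to 29278351 reads assigned to genes, a depth at which a gene near the filter rests on few reads. The ribosomal RNA gene Rn45s took 0.401% to 0.850% of the P10 reads, against 30.8% in 1 of the older libraries, the second 4w KO library. Correlations between P10 libraries lay between 0.983 and 0.994, no pair of the 18 libraries was identical, and the first principal component of the 6 P10 libraries, with 43.2% of the variance, put all KO libraries on one side and all WT libraries on the other. The cardiomyocyte markers fixed for this tissue were all measured, with 0 of 17 called at P10 by limma, edgeR or DESeq2 (1 higher and 1 lower at an unadjusted p under 0.05). Their summed normalized count ranged from 1.88e+06 to 2.06e+06 in KO and from 1.69e+06 to 2.03e+06 in WT libraries. Every P10 library held transcripts of both Xist, expressed from the inactive X of females (4814 to 6612 in KO and 5229 to 11077 in WT), and the Y-linked Ddx3y (525 to 1198 in KO and 634 to 1112 in WT). Each P10 library thus held RNA of both sexes, in a ratio that differed between libraries. The part of this mix in the P10 differences was not tested. The 4w and 20w libraries had Xist at 0 to 9.40 and Ddx3y at 2397 to 3756. In bulk tissue, fewer cells of a type and less RNA per cell cannot be told apart.

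At P10 the loss of Klf15 was accompanied mainly by lower expression. The threshold for a call was an adjusted p below 0.05 (limma on log2(value + 1), Benjamini-Hochberg adjustment over all 13032 genes). By that rule 295 genes (2.26%) changed, of which 77 rose (0.591%) and 218 fell (1.67%). These shares over all genes are the background for the P10 counts of every list below. The changes were mostly moderate, with a median log2 fold change of 0.57 for the genes that rose and -0.63 for those that fell, and 13 and 41 genes went past 1 on that scale. KO and WT libraries did not overlap for 76 of the 77 and 215 of the 218 genes, while over all tested genes 1214 (9.32%) had all KO libraries above all WT libraries and 1688 (13%) had them all below. The count moved with single libraries: it was 178, 119 and 123 without KO 1, KO 2 and KO 3, and 295, 143 and 110 without WT 1, WT 2 and WT 3, as the libraries are numbered here. It was 109 on the common total, 515 with edgeR and 562 with DESeq2 on the recovered reads. The median log2 fold change of all tested genes at P10 hardly moved, from -0.011 to -0.014 on the common total. That total includes Rn45s, at 30.8% of the reads of the second 4w KO library. On either scaling, limma took each gene's spread, and so each SE and p-value, from all 18 libraries. The part of that library in the count of 109 was not tested.

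**Figure D1:**
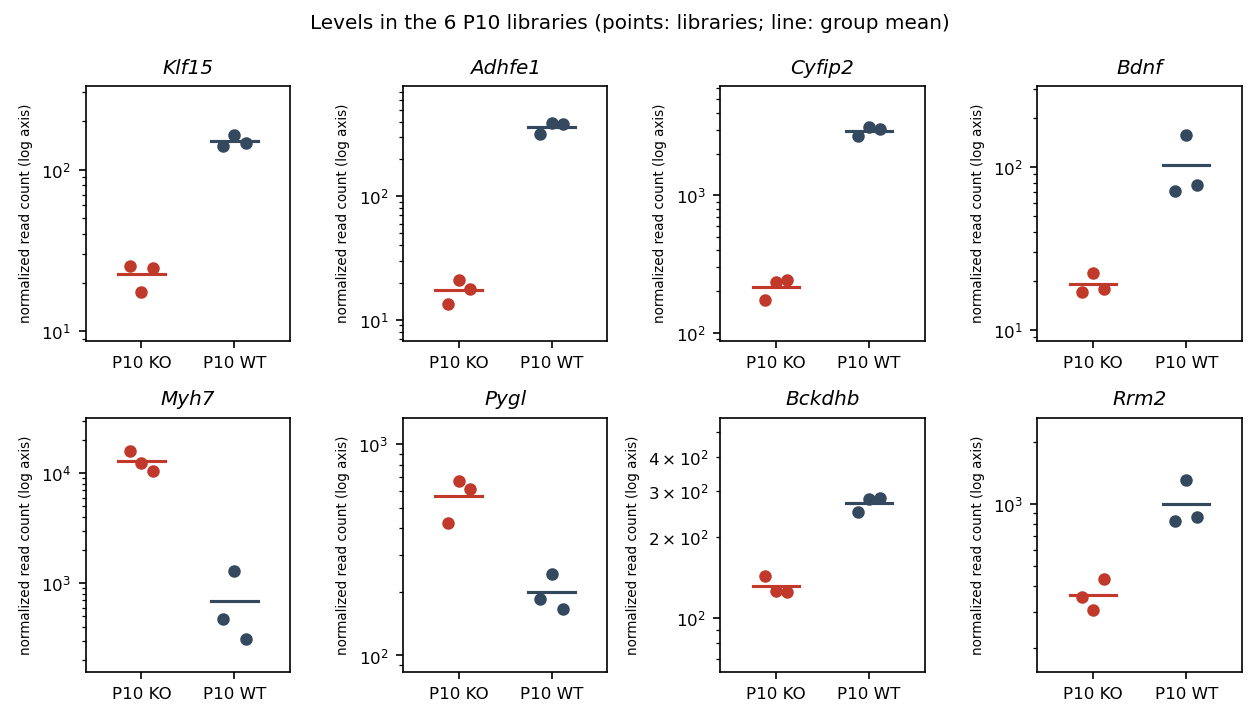
Normalized read counts of 8 genes in the 6 P10 libraries, on log axes, with KO left of WT; points are libraries and lines are group means of 3 libraries. KO and WT libraries are separate in each panel, with Myh7 and Pygl higher in KO and the other 6 genes lower.

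Klf15 itself was reduced and still measured. Its normalized read count was 25.4, 17.4 and 24.7 in the KO libraries, against 139.7, 164 and 145 in the WT libraries. Every KO library lay below every WT library, and the log2 fold change was -2.69 ± 0.20 (SE, n = 3 each; limma adjusted p = 1.3e-07), or 6.48-fold lower. Shisa3, one of the Shisa genes, which modulate Wnt and FGF receptors, and named in the series title, was at 20.7, 28.3 and 39.2 in KO and 59.1, 87.9 and 41.4 in WT. Its highest KO library lay just under its lowest WT library, and the difference did not pass the test (log2 fold change -1.05 ± 0.31 SE, limma adjusted p = 0.091). It was called, again lower in KO, with edgeR and DESeq2 on the recovered reads and with library quality weights (lowest adjusted p over all settings 0.020).

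The enzymes that break down branched-chain amino acids formed the most widely lowered metabolic list. Of its 27 measured members 10 fell and 0 rose, or 37.0% against the 2.26% called over all genes, and 25 had a log2 fold change below 0. The list median was -0.24, against -0.01 over all tested genes. The summed normalized count of the list was 20027 to 21944 in KO libraries and 24641 to 28108 in WT libraries. With single libraries left out the number that fell was 7 to 11, and it was 10 with edgeR, 11 with DESeq2 and 6 when libraries were scaled to a common total.

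The 250-base windows just before annotated gene starts are shown, since KLF15 belongs to a family that binds CACCC-type sequences and these genes changed at P10. Bckdhb and Aldh6a1 stand for the branched-chain list, Cyfip2 for a large fall and Myh7 for a large rise outside it. The sequences are RefSeq promoters of the build GRCm38.p6, written 5′ to 3′ on the gene's strand, and capitals mark CACCC or its reverse complement GGGTG. The windows are chr9:83924887-83925136 (plus strand) for Bckdhb, chr12:84451025-84451274 (minus) for Aldh6a1, chr11:46312359-46312608 (minus) for Cyfip2 and chr14:54994627-54994876 (minus) for Myh7.
Bckdhb: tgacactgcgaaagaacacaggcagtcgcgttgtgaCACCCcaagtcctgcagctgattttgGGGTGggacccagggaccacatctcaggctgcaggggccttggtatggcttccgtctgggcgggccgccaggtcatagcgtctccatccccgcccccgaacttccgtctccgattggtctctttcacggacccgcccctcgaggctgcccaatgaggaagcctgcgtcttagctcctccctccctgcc
Aldh6a1: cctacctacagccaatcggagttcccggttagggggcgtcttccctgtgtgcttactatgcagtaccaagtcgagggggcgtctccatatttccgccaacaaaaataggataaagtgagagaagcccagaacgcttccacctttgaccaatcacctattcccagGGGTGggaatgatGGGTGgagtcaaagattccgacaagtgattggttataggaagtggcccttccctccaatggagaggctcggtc
Cyfip2: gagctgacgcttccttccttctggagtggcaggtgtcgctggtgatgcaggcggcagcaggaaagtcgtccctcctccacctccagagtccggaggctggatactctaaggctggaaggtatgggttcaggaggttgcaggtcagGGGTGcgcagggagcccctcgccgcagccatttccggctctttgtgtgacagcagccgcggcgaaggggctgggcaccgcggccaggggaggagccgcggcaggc
Myh7: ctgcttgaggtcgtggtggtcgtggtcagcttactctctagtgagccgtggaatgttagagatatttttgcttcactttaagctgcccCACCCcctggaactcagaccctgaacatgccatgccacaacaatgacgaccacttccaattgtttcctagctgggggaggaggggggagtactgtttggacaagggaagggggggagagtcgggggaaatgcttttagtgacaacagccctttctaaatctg
Bckdhb and Aldh6a1 hold 2 such matches each, and Cyfip2 and Myh7 hold 1 each. Windows of this length held at least 1 match on either strand in 51.3% of the 27025 genes of the promoter table and in 57.2% of the 9818 tested genes matched to it. The share was 60.7% of the 168 matched genes that fell at P10, 58.1% of the 62 that rose and 69.6% of the 23 matched members of the branched-chain list. Such a match is a description of the letters and not a binding site.

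The lowered members covered the shared first steps and the separate branches for leucine and valine. Bcat2, the mitochondrial branched-chain aminotransferase, was at 209, 194 and 194 in KO and 264, 343 and 282 in WT. Bckdhb, which encodes E1 beta of the branched-chain ketoacid dehydrogenase, was at 144, 126 and 124 in KO, against 249, 278 and 282 in WT. The KO values were 2.05-fold lower with no overlap (log2 fold change -1.03 ± 0.10 SE, adjusted p = 3.7e-06), and for Bcat2 the log2 fold change was -0.57 ± 0.10 (adjusted p = 0.0030). Dbt, the E2 subunit of the same complex, fell by 0.67 on the log2 scale (adjusted p = 0.00039). Bckdha, the E1 alpha subunit, was at 842, 636 and 578 in KO and 752, 799.8 and 799 in WT and did not pass the test (-0.21, adjusted p = 0.56).

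On the leucine branch, Ivd, the isovaleryl-CoA dehydrogenase, was at 732, 615 and 649.9 in KO and 1003, 1094 and 1215 in WT libraries (1.66-fold lower, log2 fold change -0.73 ± 0.10 SE, limma adjusted p = 0.00015). Mccc2 and Mccc1, which encode the subunits of 3-methylcrotonyl-CoA carboxylase, fell by 0.74 and 0.45 on the log2 scale (adjusted p = 0.0020 and 0.016). On the valine branch, Aldh6a1, the methylmalonate semialdehyde dehydrogenase, stood at 882, 808 and 708 in KO and 1509, 1388 and 1693 in WT. That was 1.92-fold lower with no overlap (log2 fold change -0.94 ± 0.09 SE, adjusted p = 6.2e-06). Hibadh, the 3-hydroxyisobutyrate dehydrogenase, fell by 0.31 (adjusted p = 0.047). Of the propionyl-CoA steps that follow, Mut, the methylmalonyl-CoA mutase, was at 934, 812 and 795 in KO and 1189.6, 1199 and 1365 in WT (log2 fold change -0.56 ± 0.08 SE, adjusted p = 0.00033), and Pcca, a propionyl-CoA carboxylase subunit, fell by 0.42 (adjusted p = 0.014). The calls of 3 of these genes depended on single libraries. The call of Mccc1 was lost without KO 2 or WT 3 (adjusted p = 0.12 at most, without WT 3). The call of Pcca was lost without KO 1, KO 2 or WT 3 (adjusted p = 0.10 at most, without WT 3), and that of Hibadh was lost without KO 2, KO 3, WT 2 or WT 3 (adjusted p = 0.26 at most, without WT 3). Bcat2, Mccc1, Pcca and Hibadh were not called on the common total.

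Breakdown of other amino acids and of GABA showed the same direction in fewer genes. Of 29 tested members 5 fell and 0 rose (17.2% called, against 2.26% of all genes), 27 were below 0, and the median was -0.23. The gene with the lowest log2 fold change here, and the smallest adjusted p of all 13032, was Adhfe1, the mitochondrial transhydrogenase that oxidizes gamma-hydroxybutyrate. Adhfe1 was at 13.5, 21.1 and 17.9 in KO libraries, against 321, 391 and 388 in WT libraries. All KO values were at least an order of magnitude below the WT values, and the change was 20.1-fold (log2 fold change -4.33 ± 0.21 SE, limma adjusted p = 1.4e-10). Abat, the GABA transaminase, was at 85.00, 86.6 and 77.5 in KO and 109, 158 and 111 in WT, a smaller difference without overlap (-0.57 ± 0.15 SE, adjusted p = 0.044). Aldh4a1, an enzyme of proline breakdown, fell by 0.88 (adjusted p = 0.0023), Oat, the ornithine aminotransferase, by 0.49 (0.00061) and Gcdh, the glutaryl-CoA dehydrogenase of lysine and tryptophan breakdown, by 0.51 (0.017). The call of Abat was lost without any 1 library except WT 1 (adjusted p = 0.23 at most, without WT 2). The call of Gcdh was lost without KO 2, KO 3, WT 2 or WT 3 (adjusted p = 0.11 at most, without KO 3). Oat (adjusted p = 0.076), Gcdh and Abat were not called on the common total. Abat was also not called with the 6 P10 libraries alone, by limma or by edgeR.

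At this age no fatty acid gene passed the main test. Of 39 tested members of fatty acid uptake and oxidation 0 passed limma's test at P10, with 3 higher and 4 lower at an unadjusted p under 0.05. edgeR called 1 higher and DESeq2 called 1 higher and 1 lower, and the list median was -0.06. Lpl, the lipoprotein lipase, was at 18784, 24499.5 and 25095 in KO and 25410.3, 24762 and 27932 in WT (-0.20 ± 0.15 SE, adjusted p = 0.60). Cd36, the fatty acid transporter, was at 19565, 20794 and 19283 in KO and 20058, 19316 and 20425 in WT, with overlapping groups (-0.004 ± 0.09 SE, adjusted p = 0.99). In the same list 28 members were lower at 4w (2.66% of all genes were) and 29 at 20w (4.28% of all genes), with medians of -0.44 and -0.48. The KO effect at 4w differed from that at P10 for 14 of the 39 members (1.26% of all genes in the interaction) and the effect at 20w differed for 13 (3.74% of all genes).

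In glucose use, 2 of 24 tested genes fell and 0 rose (8.33% called, against 2.26% of all genes). The list median was -0.18, with 21 members below 0. Hk2, the insulin-responsive hexokinase of muscle, was at 2144, 1764 and 2112 in KO, against 3229, 3383 and 3689 in WT. It was 1.71-fold lower with no overlap (-0.78 ± 0.08 SE, adjusted p = 1.3e-05). Eno3, the muscle enolase, fell by 0.33 (adjusted p = 0.040). That call was lost without KO 2, KO 3, WT 2 or WT 3 (adjusted p = 0.18 at most, without KO 3). Pdk4, the pyruvate dehydrogenase kinase and a glucocorticoid-responsive gene, was at 5624, 8214 and 6827 in KO and 6669, 4439 and 6081 in WT and did not pass the test (0.27, adjusted p = 0.64).

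Glycogen genes gave a single call of 24 tested (4.17%, against 2.26% of all genes), and it was a rise. Pygl, the liver isoform of glycogen phosphorylase, was at 423, 668 and 611 in KO libraries, against 186, 244 and 166 in WT libraries. The lowest KO library was well above the highest WT library, with a 2.83-fold difference (log2 fold change 1.502 ± 0.15 SE, adjusted p = 1e-05).

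Among the antioxidant genes, 3 of 35 fell and 0 rose (8.57% called, against 2.26% of all genes), and the median was -0.08. All 3 are glutathione transferases. Gstk1, the kappa form of mitochondria and peroxisomes, was at 42.5, 32.5 and 31.5 in KO and 87.2, 82.1 and 96.5 in WT (2.47-fold lower, -1.31 ± 0.15 SE, limma adjusted p = 2.2e-05). Gstm7, a mu form, was at 42.5, 28.9 and 33.2 in KO and 88.1, 125 and 86.00 in WT (2.80-fold lower, -1.49 ± 0.16 SE, adjusted p = 1.9e-05), and its count is uncertain where reads are shared with the similar mu genes beside it. Gsto1, an omega form, fell by 0.51 (adjusted p = 0.031). Its call was lost without KO 2, KO 3, WT 2 or WT 3 (adjusted p = 0.18 at most, without KO 3). In oxidative phosphorylation 2 of 54 genes fell and 0 rose (median -0.06), or 3.70% called, which is near the 2.26% of all genes. Cox6a2, the muscle isoform of a cytochrome oxidase subunit, was at 3607, 2964 and 2777 in KO and 4134, 5024 and 4852 in WT (-0.59 ± 0.10 SE, adjusted p = 0.0033). Sdhb, a complex II subunit, fell by 0.36 (adjusted p = 0.039) with overlapping groups. Its call was lost without KO 2, KO 3, WT 2 or WT 3 (adjusted p = 0.20 at most, without KO 3).

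**Figure D2:**
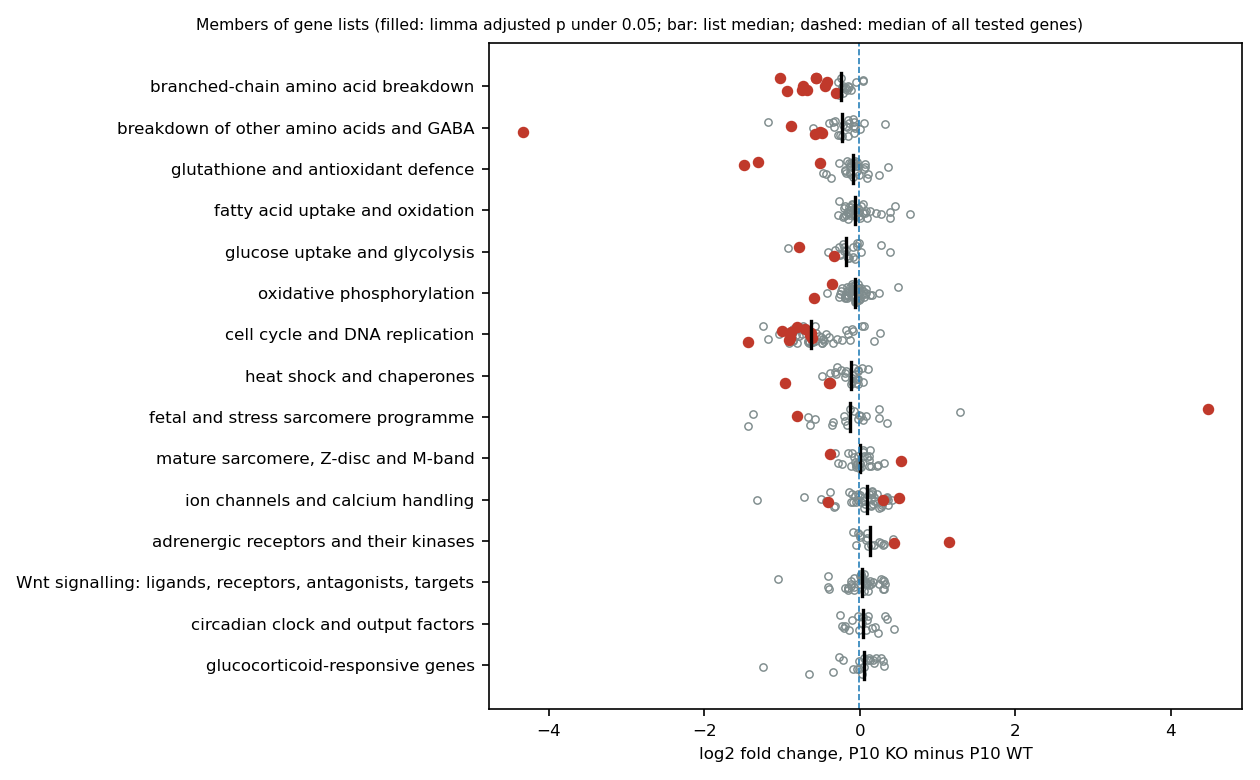
Log2 fold changes at P10 (KO minus WT) of the tested members of 15 gene lists; filled points were called (limma adjusted p under 0.05), bars are list medians and the dashed line is the median of all tested genes, -0.01. The cell cycle list (median -0.63) and both amino acid lists (-0.24 and -0.23) lie left of the line, and Adhfe1 (-4.33) and Myh7 (4.48) stand far out.

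Most cell cycle and DNA replication genes had lower values in KO, and fewer passed the test. Of 56 members 10 fell and 0 rose (17.9% called, against 2.26% of all genes), and 52 had a log2 fold change below 0. In 47 every KO library lay below every WT library, against 13% of all genes. The list median was -0.63, and the summed normalized count was 23837 to 26284 in KO libraries and 32298 to 37983 in WT libraries. The number of calls depended on the fit. It was 30 with edgeR, 27 with DESeq2, 35 when limma used the 6 P10 libraries alone and 4 on the common total. Without KO 1, KO 2 and KO 3 it was 6, 3 and 5, and without WT 1, WT 2 and WT 3 it was 8, 3 and 4.

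Among the called genes of nucleotide supply and S phase was Rrm2, the regulated subunit of ribonucleotide reductase, at 355, 305 and 430.1 in KO, against 829, 1311 and 860.0 in WT. It was 2.71-fold lower with no overlap (-1.44 ± 0.21 SE, limma adjusted p = 0.00045). Rrm1, the other subunit, was at 842, 738 and 810.0 in KO and 1098, 1416 and 1162 in WT (-0.61 ± 0.10 SE, adjusted p = 0.0013). The difference for Rrm1 was not called on the common total (adjusted p = 0.062). Ccne2, the cyclin E2 of the G1 to S step, was at 188, 182 and 176 in KO and 289.7, 376 and 351 in WT (-0.88 ± 0.17 SE, adjusted p = 0.0071). Rfc4, a clamp loader subunit, fell by 0.64 (adjusted p = 0.013), and Uhrf1, which maintains DNA methylation at replication, fell by 0.80 (0.031). The call of Rfc4 was lost without KO 2, KO 3, WT 2 or WT 3 (adjusted p = 0.084 at most, without WT 2). The call of Uhrf1 was lost without any 1 library except WT 1 (adjusted p = 0.16 at most, without WT 2). Like Rrm1, Rfc4 and Uhrf1 were not called on the common total.

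Mitotic members fell too. Top2a, the topoisomerase of chromosome condensation, was at 1185, 1112 and 1210.3 in KO and 1982, 2398 and 2251 in WT (-0.91 ± 0.19 SE, limma adjusted p = 0.012). Anln, the cytokinesis scaffold anillin, was at 459, 446 and 485 in KO and 730.2, 1071 and 812 in WT (-0.89 ± 0.18 SE, adjusted p = 0.012). The kinesins Kif20a and Kif11 fell by 1.01 and 0.71 (adjusted p = 0.041 and 0.045). The proliferation marker Mki67 was at 2156, 2278 and 2560.2 in KO and 3338, 3752 and 3922 in WT, without overlap, but did not pass the test (-0.66 ± 0.20 SE, adjusted p = 0.097). The 4 members above 0 were Cdk6, Cdkn1c, Cdkn1b and Ccnd1, with log2 fold changes between 0.02 and 0.26, none of them called. The call of Top2a was lost without KO 2, WT 2 or WT 3 (adjusted p = 0.064 at most, without WT 2). The call of Anln was lost without KO 2 or WT 2 (adjusted p = 0.088 at most, without WT 2). The call of Kif20a was lost without any 1 library except WT 1 (adjusted p = 0.21 at most, without WT 2). The call of Kif11 was lost without any 1 of the 6 libraries (adjusted p = 0.18 at most, without WT 3). Kif20a and Kif11 were also not called on the common total.

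**Figure D3:**
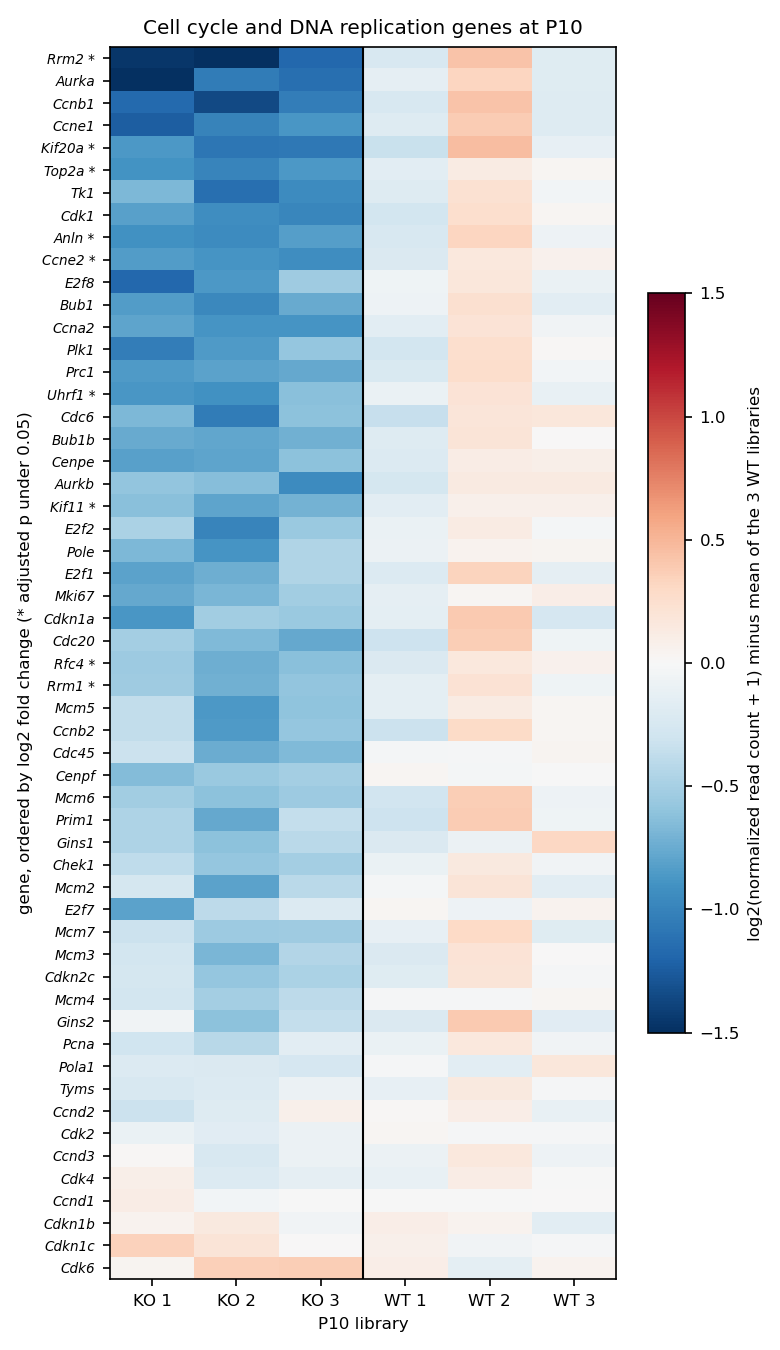
Cell cycle and DNA replication genes (rows, all but 1 of the 56 in the list, ordered by log2 fold change) in the 6 P10 libraries (columns, KO left of WT); colour is log2(normalized read count + 1) minus the mean of the 3 WT libraries. The log2 fold change is below 0 for 52 of the 56 genes in the list, and stars mark called genes.

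The cycling cells are not named by the labels, and few markers of other cell types were called. Of 14 fibroblast, 14 endothelial and 18 macrophage markers tested, 0 were called with limma, with 2 fibroblast and 5 macrophage markers lower at an unadjusted p under 0.05. edgeR and DESeq2 each called 1 macrophage marker lower and none of the others. The macrophage list had 17 of 18 markers below 0 and a median of -0.24, with sums of 2938 to 3305 in KO libraries and 3296 to 3918 in WT libraries. The 4 tested erythroid markers were all below 0 (median -0.59), with sums of 572 to 692 in KO and 771 to 958 in WT, while the globin genes, which mark these cells, were listed at 0 in all 6 libraries. Of these 4, edgeR and DESeq2 each called 1 lower and limma 0 (1 lower at an unadjusted p under 0.05). Tfrc, the transferrin receptor gene, fell by 1.00 (adjusted p = 0.020). The call of Tfrc was lost without any 1 library except WT 2 (adjusted p = 0.083 at most, without WT 3). The part of these cell type shifts in the lower cell cycle counts was not tested. Smooth muscle and pericyte markers had a median of 0.17 with 1 of 12 called, Abcc9, and sums of 32843 to 36833 in KO and 28815 to 30219 in WT. Of 10 lung epithelial markers none reached the filter, and 4 lymphocyte, 4 adipocyte and 4 skeletal muscle markers were tested with 0 called by limma, edgeR or DESeq2 and 0 at an unadjusted p under 0.05. The atrial list had 0 of 10 called by the same 3 tools (1 lower at an unadjusted p under 0.05), although Nppa was at 3956 in the second WT library and between 261 and 605 in the other 5.

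Few contractile genes were called, and Myh7 had the largest change of those. Of 23 tested genes of the fetal and stress programme 1 rose and 1 fell (8.70% called). Of 30 genes of the mature sarcomere 1 rose and 1 fell (6.67% called), against 2.26% of all genes. Myh7, the slow beta myosin heavy chain, was at 16046, 12445 and 10568 in KO libraries, against 474, 1290.2 and 309.9 in WT libraries. Even the highest WT library, the second, was far below the lowest KO library, and the fold was 22.3 (log2 fold change 4.48 ± 0.68 SE, limma adjusted p = 0.00074). Myh6, the adult alpha form, was at 340426, 316863 and 344952 in KO and 319451, 272159 and 330366 in WT, with overlapping groups (0.12 ± 0.14 SE, adjusted p = 0.77). Other markers of the fetal programme did not pass the test with it. Acta1, skeletal alpha-actin, was at 575, 412 and 469 in KO and 525, 3789 and 989 in WT (-1.38, adjusted p = 0.22). Tnni1, the slow skeletal troponin I of the fetal heart, was at 2649, 2657 and 3144 in KO and 1250.5, 2003 and 599.6 in WT (1.29, adjusted p = 0.27). Nppa, the atrial natriuretic peptide gene, was at 443, 448 and 261 in KO and 605, 3956 and 428 in WT (-1.43, adjusted p = 0.22).

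Xirp2, an actin-binding intercalated disc protein gene, was at 6020.0, 6840.2 and 7274 in KO and 9416, 14448 and 11916 in WT (1.76-fold lower, adjusted p = 0.024). Myom2, an M-band protein gene of adult fast fibres and heart, was at 19545, 20130.3 and 18829.5 in KO, against 14906, 14553 and 11464 in WT (0.52 ± 0.12 SE, adjusted p = 0.027). Cryab, the desmin chaperone alpha-B crystallin, fell by 0.38 (adjusted p = 0.048). Each of these 3 calls by limma depended on single libraries. The call of Xirp2 was lost without any 1 library except WT 1 (adjusted p = 0.14 at most, without WT 2). The call of Myom2 was lost without KO 1, KO 2, KO 3 or WT 3 (adjusted p = 0.16 at most, without WT 3). The call of Cryab was lost without any 1 library except WT 1 (adjusted p = 0.21 at most, without WT 2). Other chaperone genes that fell were Hspb6, a small heat shock protein, at 874, 1482 and 1378 in KO and 2267, 2620.1 and 2247 in WT (-0.97 ± 0.16 SE, adjusted p = 0.0016), Hspa4l, an Hsp110 relative (-0.55, 0.00015), and Hspd1, the mitochondrial chaperonin (-0.40, 0.030). Hspb6, Hspd1 and Cryab are the 3 of 27 members called in the heat shock list (11.1%, against 2.26% of all genes). The median of that list was -0.12, and Hspa4l was not on it. The call of Hspd1 was lost without KO 1, KO 3, WT 2 or WT 3 (adjusted p = 0.16 at most, without WT 3).

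Of 18 adrenergic receptor and kinase genes 2 rose and 0 fell (median 0.13), or 11.1% called, against 2.26% of all genes. Adra1a, the alpha-1A adrenergic receptor, was at 54.4, 111 and 80.9 in KO and 48.7, 26.5 and 33.3 in WT. The lowest KO library lay just above the highest WT library (2.21-fold higher, 1.14 ± 0.24 SE, limma adjusted p = 0.014). Adrb1, the beta-1 receptor, was at 394, 448 and 416 in KO and 317, 287 and 325 in WT (0.44 ± 0.11 SE, adjusted p = 0.039). Of 46 ion channel and calcium handling genes 2 rose and 1 fell (median 0.09), or 6.52% called. Kcnq1, a delayed rectifier potassium channel, was at 813, 707 and 818 in KO, against 549, 525 and 577 in WT (0.50, adjusted p = 0.011). Abcc9, the sulphonylurea receptor of the ATP-sensitive potassium channel, was at 12585, 12579 and 12626 in KO and 10896, 9804 and 10016 in WT (0.30, adjusted p = 0.032). Kcnip2, the subunit of the transient outward current and a known KLF15 target, fell by 0.41 (adjusted p = 0.018). The call of Adra1a was lost without KO 2, KO 3, WT 2 or WT 3 (adjusted p = 0.091 at most, without KO 2). The call of Adrb1 was lost without any 1 of the 6 libraries (adjusted p = 0.17 at most, without KO 2). The call of Kcnq1 was lost without KO 3 or WT 2 (adjusted p = 0.066 at most, without KO 3). The call of Abcc9 was lost without any 1 library except WT 1 (adjusted p = 0.13 at most, without WT 3). The call of Kcnip2 was lost without KO 2, KO 3 or WT 2 (adjusted p = 0.11 at most, without KO 2).

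After Adhfe1, Cyfip2 had the lowest log2 fold change among called genes with an ordinary name and a mean of at least 50. It encodes a subunit of the WAVE complex that drives branched actin assembly. Cyfip2 was at 175, 233 and 242 in KO libraries, against 2705, 3119.6 and 3028 in WT libraries. The 2 groups were far apart and each was tight at P10 (13.7-fold lower, -3.77 ± 0.36 SE, limma adjusted p = 4.3e-06). That SE draws on all 18 libraries, among them the 4w WT libraries at 894, 1469 and 4179. It was the only one of 22 genes of the WAVE complex and branched actin list that was called, and that list's median was -0.05. Abhd1, an alpha/beta hydrolase fold gene, was at 12.7, 13.8 and 13.6 in KO and 77.8, 117 and 144 in WT (-2.94 ± 0.32 SE, adjusted p = 1.6e-05). Bdnf, the brain-derived neurotrophic factor, was at 17.1, 22.3 and 17.9 in KO and 71.2, 157 and 77.9 in WT (4.84-fold lower, adjusted p = 5.7e-05), and it was the 1 called gene of 32 neurotrophins and other secreted factors.

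Atp6v0e2, a membrane subunit of the vacuolar proton pump, was at 42.9, 49.9 and 42.6 in KO and 195, 130.3 and 153 in WT (3.44-fold lower, limma adjusted p = 5.5e-05), while the other 16 tested pump genes were not called. B3galt2, a galactosyltransferase, was nearly constant in KO at 25.4, 25.3 and 24.7, against 73.1, 92.1 and 98.98 in WT (-1.76 ± 0.18 SE, adjusted p = 1.1e-05). Nmrk2, the nicotinamide riboside kinase of muscle, was at 50.8, 28.9 and 54.5 in KO and 76.9, 299 and 135 in WT (-1.73, adjusted p = 0.021). Its call was lost without KO 2, WT 2 or WT 3 (adjusted p = 0.13 at most, without WT 2). Ccbl2, a kynurenine aminotransferase, was at 41.3, 28.3 and 21.3 in KO and 62.8, 82.97 and 84.4 in WT (-1.35 ± 0.17 SE, adjusted p = 0.00012). Egln3, a prolyl hydroxylase of the hypoxia pathway, was at 544, 445 and 509 in KO and 861, 845 and 969 in WT (-0.84 ± 0.11 SE, adjusted p = 0.00012).

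Casq1, the skeletal calsequestrin, was at 159, 174 and 132 in KO, against 371, 497 and 550.1 in WT (3.01-fold lower, -1.59 ± 0.18 SE, limma adjusted p = 2.3e-05). Myl1, the fast skeletal essential light chain, was at 79.04, 56.5 and 42.6 in KO and 132, 144 and 217 in WT (2.76-fold lower, adjusted p = 0.00035). Mybpc2, Scn4a and Cacna1s, other genes of skeletal muscle, were called lower too (adjusted p = 0.023, 0.041 and 0.037). Each of these 3 calls was lost without some single libraries. Clcn1, the skeletal chloride channel, went the other way, at 27.4, 26.5 and 40.03 in KO and 19.7, 11.6 and 15.4 in WT (0.97, adjusted p = 0.026). The call of Clcn1 was lost without KO 3, WT 2 or WT 3 (adjusted p = 0.16 at most, without KO 3). In the skeletal muscle marker list 0 of 4 tested genes were called by limma, 3 were above 0 and the median was 0.18. Its defining marker Myod1 was at 0 in all 6 P10 libraries, and the list was summed at 15670 to 20605 in KO and 15503 to 18869 in WT. Ckm, the muscle creatine kinase that also marks the heart, was at 20408, 15442 and 16111 in KO and 15203, 18617 and 17453 in WT and made up most of that sum.

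Among genes with an ordinary name, separate groups and a mean of 50 or more, Rprl3 and Myh7 had the largest called rises. Pygl, Rph3al, Ubxn10 and Pdzrn4 followed. Rph3al, a Rab effector of exocytosis, was at 124, 143 and 163 in KO and 63.7, 62.2 and 34.1 in WT (2.73-fold higher, 1.45 ± 0.20 SE, limma adjusted p = 0.00024). Pcp4l1 was at 1906, 2138 and 2264 in KO and 1286, 803 and 1329 in WT (1.89-fold higher, adjusted p = 0.0019). Efnb3, the Eph receptor ligand ephrin-B3, was at 1512, 1699 and 1771 in KO and 999, 918 and 769 in WT (1.86-fold higher, adjusted p = 0.0016). Cirbp, the cold-inducible RNA-binding protein gene, was at 662, 768 and 716 in KO, against 414, 465 and 367 in WT (0.79 ± 0.15 SE, adjusted p = 0.0049). Srf, the serum response factor, was the 1 called gene of 27 cardiac transcription factors and coactivators, at 1709, 1405 and 1446 in KO and 1154, 1142 and 1042 in WT (0.45, adjusted p = 0.041). Its call was lost without any 1 of the 6 libraries (adjusted p = 0.18 at most, without WT 3).

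Ubxn10, Pdzrn4, Lrrc4b, Scand1 and Lad1 rose by 1.44, 1.35, 1.09, 1.10 and 1.08 on the log2 scale, and each of these calls by limma was lost without at least 1 library. The call of Ubxn10 was lost without WT 2 (adjusted p = 0.075). The call of Pdzrn4 was lost without any 1 library except WT 1 (adjusted p = 0.18 at most, without WT 2). The call of Lrrc4b was lost without any 1 library except WT 1 (adjusted p = 0.17 at most, without WT 2). The call of Scand1 was lost without KO 1 or KO 2 (adjusted p = 0.071 at most, without KO 2), and that of Lad1 was lost without KO 2, WT 2 or WT 3 (adjusted p = 0.073 at most, without WT 3). Fam65b, an inhibitor of RhoA, rose by 0.77 (adjusted p = 0.00015) and kept its call in every setting. Rprl3, an RNase P RNA gene entry, was at 2118, 1272 and 846 in KO and 8.44, 9.13 and 12.2 in WT (6.93 ± 0.98 SE, adjusted p = 0.00035), and this value is uncertain because near-identical copies in the genome share its reads.

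Several lists that the study or the gene's known roles bring to mind showed 0 calls with limma at P10. Of 39 Wnt ligands, receptors, antagonists and targets 0 were called (4 higher and 3 lower at an unadjusted p under 0.05), and edgeR and DESeq2 each called 1 lower, Shisa3. Ctnnb1, beta-catenin, was at 10303, 9222 and 8836 in KO and 8910.1, 9762 and 9160.4 in WT (0.03 ± 0.08 SE, adjusted p = 0.94). Of 19 circadian clock genes 0 were called by limma, edgeR or DESeq2 (2 higher at an unadjusted p under 0.05), and Tef, a clock output factor, was at 1344, 1320.3 and 1145 in KO and 1277, 1290.2 and 1507 in WT (-0.10, adjusted p = 0.68). Of 21 glucocorticoid-responsive genes 0 were called by the same 3 tools (2 lower at an unadjusted p under 0.05). Of 25 genes of the integrated stress response and serine one-carbon metabolism 0 were called (1 lower unadjusted), and of 21 cholesterol genes 0 (1 higher and 1 lower unadjusted), again with 0 in edgeR and DESeq2. In the Krüppel-like family Klf15 was the 1 called gene of 17 tested. Of 41 extracellular matrix genes Col8a1 was the 1 called, falling by 0.74 (adjusted p = 0.040), of 34 interferon and antigen presentation genes H2-K1, rising by 0.56 (0.045), and of 17 DNA damage and p53 target genes Ccng1, falling by 0.45 (0.0096). The call of Col8a1 was lost without any 1 library except WT 1 (adjusted p = 0.19 at most, without WT 2). The call of H2-K1 was lost without any 1 library except KO 3 (adjusted p = 0.18 at most, without KO 1). The call of Ccng1 was lost without KO 2, KO 3 or WT 3 (adjusted p = 0.080 at most, without WT 3).

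At the later ages, which share no libraries with P10, the KO effect was called for 736 genes at 4w (5.65%) and 976 at 20w (7.49%). Of the 218 genes that fell at P10, 66 also fell at 4w, which is 30.3% of the P10 list and 19.1% of the 346 genes that fell at 4w. At 20w 69 fell again, 31.7% of the P10 list and 12.4% of the 558 of that age, and 54 fell at all 3 ages. Of the 77 that rose at P10, 16 rose at 4w (20.8% of the P10 list and 4.10% of 390, which are 2.99% of all genes) and 15 at 20w (19.5% and 3.59% of 418, which are 3.21% of all genes), with 8 at all 3 ages. Opposite calls were fewer than calls in the same direction, with 1 of the 218 and 0 of the 77 at 4w and 9 and 7 at 20w. Over all genes 2.99% were called higher and 2.66% lower at 4w, and 3.21% higher and 4.28% lower at 20w. The opposite calls at 20w were thus not rarer than such calls over all genes. Called at P10 and at neither later age were 127 of the genes that fell and 47 of those that rose. The P10 list had smaller median changes later, of -0.20 at 4w and -0.16 at 20w for the genes that fell and 0.18 and 0.08 for those that rose, as values of genes chosen at P10.

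**Figure D4:**
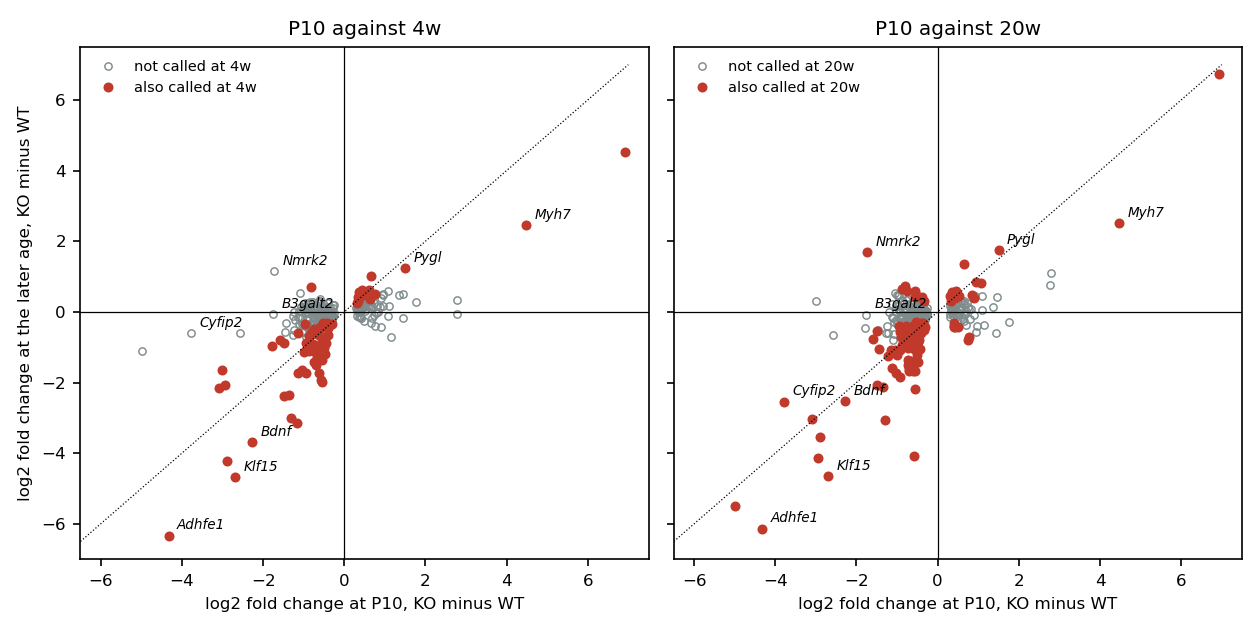
Log2 fold changes (KO minus WT) of the 295 genes called at P10 (horizontal axis) against those at 4w (left) and 20w (right); filled points were also called at the later age and the dotted line marks equal values. Klf15 and Adhfe1 lie below the dotted line in both panels, Bdnf lies below it at 4w, and Nmrk2 and B3galt2 lie far above it.

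Whether an effect differed with age was tested by the interaction, in which 164 genes (1.26%) differed between 4w and P10, 0.66% higher and 0.599% lower. The P10 libraries held Xist and Ddx3y together while the older ones were near 0 for Xist, so age and the sex makeup of the libraries cannot be told apart in these differences. Between 20w and P10 488 genes (3.74%) differed, 1.93% higher and 1.82% lower. When libraries were scaled to a common total, the first count was 92, of which 6.52% were higher against 52.4% in the main scaling, and the median of all genes moved to -0.22, so that the directions at 4w are relative to that shift. Without the second 4w KO library that count was 93. In branched-chain breakdown the interaction was called for 4 of 27 members at 4w and 9 at 20w, all with a more negative KO effect than at P10. Bckdhb differed by -0.60 at 4w and -0.71 at 20w (limma adjusted p = 0.028 and 0.0052), where its levels were 225 ± 11.8 in KO and 701 ± 54.7 in WT at 4w and 239.6 ± 25.6 in KO and 801 ± 26.4 in WT at 20w. Aldh6a1 differed by -0.78 and -0.91 (adjusted p = 0.0047 and 0.0007), and Prodh, the proline dehydrogenase, at 51.6, 42.7 and 37.5 in KO and 55.3, 50.6 and 39.8 in WT at P10, by -2.04 and -1.75 (adjusted p = 0.00025 and 0.00022). The list of branched-chain genes had 15 members lower at 4w and 16 at 20w. Klf15 itself was expressed at 42.2 ± 13.2 in KO and 1078 ± 212 in WT at 4w and at 40.02 ± 6.29 in KO and 1022 ± 74.3 in WT at 20w (mean ± SD, n = 3 each, as for the other levels at these ages). Its effect differed by -1.98 and -1.95 (adjusted p = 0.0013 and 0.0007).

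The cell cycle list had smaller medians later. Its median was -0.09 at 4w and -0.12 at 20w, with 2 and 7 of the 56 members lower (2.66% and 4.28% of all genes were). The interaction was called for 1 of the 56 members at 4w (Rrm1, 0.58), against 1.26% of all genes. At 20w it was called for 3 (Ccne1, Rfc4 and Cdk6, at 1.57, 0.72 and -0.89), against 3.74% of all genes. These interaction counts are near the shares over all genes. The summed level of the list in WT hearts averaged 34705 at P10, 12966 at 4w and 13507 at 20w. Rrm2 was at 50.6 ± 5.40 in KO and 63.5 ± 10.9 in WT at 4w and at 19.95 ± 3.41 in KO and 42.98 ± 11.7 in WT at 20w. Its KO effect did not pass the test of a difference from P10 (adjusted p = 0.065 at 4w and 0.54 at 20w). B3galt2 was lower in KO at P10 but at 145 ± 15.7 in KO and 153 ± 15.2 in WT at 4w and at 329.7 ± 77.6 in KO and 350.1 ± 93.9 in WT at 20w. The differences of 1.69 and 1.68 passed (adjusted p = 0.0024 and 0.0012). Nmrk2 averaged higher in KO later, at 92.01 ± 15.3 in KO and 42.1 ± 14.1 in WT at 4w and at 120.4 ± 51.7 in KO and 35.1 ± 8.69 in WT at 20w (differences of 2.89 and 3.43, adjusted p = 0.011 and 0.0015). Egln3 fell at P10 and stood at 1086 ± 195 in KO and 889.7 ± 8.01 in WT at 4w and 913 ± 84.4 in KO and 918 ± 29.3 in WT at 20w (differences of 1.11 and 0.83, adjusted p = 0.00097 and 0.0044).

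Cyfip2 differed from P10 at 4w, where its 4w WT libraries spread widely. It was at 1239.8 ± 531 in KO and 2181 ± 1754 in WT at 4w and at 694 ± 75.8 in KO and 4097 ± 1012 in WT at 20w (difference of 3.18 at 4w, limma adjusted p = 0.0034, and 1.24 at 20w, 0.20). Myh7 was at 13146 ± 5919 in KO and 5112 ± 7258 in WT at 4w and at 17391 ± 3442 in KO and 2994 ± 290.5 in WT at 20w. The 4w WT libraries held 803, 13491 and 1040.3, so the second carried most of that mean, and it also stood apart for Rprl3, at 465 against 6.66 and 9.28 in the other 4w WT libraries. The effect on Myh7 did not pass the test of a difference from P10 (adjusted p = 0.39 and 0.31). Pygl was at 241 ± 8.08 in KO and 103 ± 16.2 in WT at 4w and at 303 ± 11.7 in KO and 90.2 ± 6.13 in WT at 20w, with no difference called from P10 (0.68 and 0.63). Adra1a rose at P10 but was at 279.7 ± 27.4 in KO and 459 ± 50.4 in WT at 4w and at 809.7 ± 245 in KO and 1030.5 ± 183 in WT at 20w (differences of -1.86 and -1.53, adjusted p = 0.0083 and 0.014). These differences share the P10 libraries with the P10 comparison itself, so they are no independent second measurement of it.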

How the data were processed

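The deposited table holds 1 value per gene entry and library. Per the submitters' processing notes, Bowtie2 2.0, DESeq2 and the mouse build mm9 were used. Per the labels, the authors deposited DESeq2-normalized counts, treated here as a signal and not as raw counts. All values were whole multiples of 1 step per library (100% within 0.001 reads), which gave back the reads and the depth of 12615972 to 29278351 per P10 library. The recovered reads entered only the alternatives with edgeR 4.0.16 and DESeq2 1.42.0.

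The main test was limma 3.58.1 in R 4.3.3 (mean-variance trend, empirical Bayes) on log2(value + 1) over all 18 libraries with 6 group means, for genes with a mean of at least 10. Fold changes are on that scale, which understates low genes. The SE and p-value of a P10 difference thus use the spread within all 6 groups, those at 4w and 20w included. P-values were adjusted by Benjamini-Hochberg over 13032 genes and called under 0.05. The interaction was the KO effect at 4w or 20w minus that at P10. The fit was tested on simulated data. Alternatives were other scalings, pseudocounts, filters and tools, quality weights, a replicate block, the P10 libraries alone and leaving out single libraries. The edgeR fit on the P10 libraries alone and the fits without the second 4w KO library were chosen after seeing the data.

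The text names Klf15 and Shisa3, the 15 highest and 15 lowest called fold changes with a mean of at least 50 and separate groups, the 8 smallest adjusted p, up to 4 called members per list (or 2 of highest mean where none was called) and up to 5 genes per direction in each interaction. Acta1, Bcat2, Bckdha, Cacna1s, Dbt, Hibadh, Kif11, Kif20a, Mccc1, Mccc2, Mki67, Mybpc2, Pcca, Rfc4, Scn4a, Tfrc, Tnni1, Top2a, Uhrf1 and the genes above 0 in the cell cycle list were named after their values were seen. The members and lists were chosen with earlier results of these data known. In all, 27 entries whose names had been turned into dates, with at most 0.204% of a library's reads, were not named. Gene models without an ordinary name, such as Gm and Rik entries, were skipped in the rankings by fold change, adjusted p and interaction. Results for a few other genes are not reported here.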

Additional observations from a re-analysis of the deposited data

Results flagged for a closer look

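The results here were picked out because the KO effect at a later age differed from that at P10 in a test of the difference itself (limma interaction, adjusted p under 0.05). Each value is the log2 KO effect at the later age minus that at P10, and each uses the P10 libraries. Such a value can come from a change in KO, in WT or in both. For Adhfe1 the mean at P10, 4w and 20w was 17.5, 17.3 and 17.3 in KO and 366, 1401 and 1283 in WT. More negative later at both ages, with the value at 4w and then at 20w, were -1.98 and -1.95 for Klf15, -1.86 and -1.53 for Adra1a, -1.33 and -0.99 for Efnb3, -2.01 and -1.81 for Adhfe1, -1.71 and -1.75 for Gstk1, -2.04 and -1.75 for Prodh and -1.10 and -1.06 for Aldh2. The same held with -3.08 and -3.37 for Gstm2, -1.32 and -1.26 for Zfyve21, -1.36 and -3.52 for Abat, -0.58 and -1.23 for Zfp275, -1.70 and -2.84 for Fbp2 and -2.56 and -4.29 for Acot1. More positive later at both ages were 1.69 and 1.68 for B3galt2, 2.89 and 3.43 for Nmrk2, 1.93 and 1.10 for Phlda1, 1.11 and 0.83 for Egln3 and 0.56 and 0.98 for Hspa4l. At 4w alone the difference passed the test with 3.18 for Cyfip2 and 0.87 for Pcbp2. At 20w alone it passed with -1.04 for Rph3al, -2.02 for Ubxn10, -1.37 for Clcn1, -0.997 for Cirbp and -0.69 for Fam65b, all more negative than at P10. The more positive values at 20w alone were 2.17 for Shisa3, 1.32 for Atp6v0e2, 1.28 for Sh2d4a, 1.15 for Alpl, 0.85 for Hspb8 and 3.18 for Nppb. That a difference passed at 1 age and not at the other does not show that the 2 ages differ, which was not tested.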

How the results depend on the processing

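Sign was compared only for the genes picked for naming. None of these that was called in the main fit or in an alternative changed sign between them. Some genes near 0 that were never called did, Ctnnb1 and Cd36 among them. The 295 calls at P10 became 515 with edgeR, 562 with DESeq2, 109 on a common total, 183 with no filter, 1384 with library quality weights, 171 with a replicate block, 466 with the 6 P10 libraries alone and 480 with edgeR on those alone. Of the 295, 287, 288, 104, 172, 295, 159, 235 and 240 were called again in these settings, in that order. Leaving out 1 P10 library gave 110 to 295. The 164 differences between 4w and P10 became 331 with DESeq2, 92 on a common total, 566 with quality weights, 67 with the replicate block, 93 without the second 4w KO library and 65 to 234 without single libraries. The 488 between 20w and P10 became 161 on a common total, 1004 with quality weights, 275 with the replicate block and 276 to 594 without single libraries. The causes were not tested. Same-numbered KO and WT libraries did not deviate together (correlations of -0.25, -0.09 and -0.06). With 3 libraries per group this cannot show whether the numbers pair them, and the block was not taken as a paired analysis. Of the 64 called genes named by the rule, 35 were called in every setting, 27 were lost without at least 1 P10 library and 24 in at least 1 other setting. With 3 libraries per group, and no label tying a library to an animal, the spread is itself poorly known, and a gene near the filter rests on few reads.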

Other observations

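The families here were singled out after their values were seen, and over all tested genes 0.591% were called higher and 1.67% lower. Condensin and SMC genes, which fold chromosomes, had 12 of 12 members below 0 and 4 called lower by limma (Ncapd2, Ncapg2, Smc2 and Smc4, at -0.40, -0.73, -0.59 and -0.62 on the log2 scale). Mitochondrial ribosomal protein genes had 65 of 75 below 0, a median of -0.10 and 4 called lower. The Iroquois transcription factors had 2 of 5 called, both higher, with Irx2 at 129.9, 126 and 116 in KO and 91.9, 58.9 and 71.4 in WT and Irx3 at 374, 517 and 421 in KO and 253, 301 and 282 in WT. The netrins, secreted guidance proteins, had 2 of 4 called, both higher (Ntn1 by 0.57 and Ntn4 by 0.61). The call of Ncapd2 was lost without any 1 library except WT 1 (adjusted p = 0.14 at most, without WT 3). The call of Smc2 was lost without any 1 library except WT 1 (adjusted p = 0.14 at most, without WT 3). The call of Irx2 was lost without any 1 library except WT 1 (adjusted p = 0.21 at most, without WT 2). The call of Irx3 was lost without any 1 library except KO 1 (adjusted p = 0.18 at most, without KO 2), and that of Ntn4 was lost without KO 2, KO 3 or WT 3 (adjusted p = 0.089 at most, without WT 3).

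In the Ifi200 family of interferon-inducible genes 3 of 8 were called lower. Ifi202b was listed at 0 in all P10 KO libraries, against 23.4, 36.5 and 34.1 in WT libraries, which is at least 16.9-fold lower with a floor of 3 reads per KO library. It did not follow genotype in this way at 4w, with 0, 16.2 and 23.6 in KO and 0, 46.5 and 89.3 in WT. At 20w it was at 0 in all KO libraries and at 23.5, 44.4 and 83.1 in WT. Ifi203 and Ifi204, close by in gene order, fell at P10 by 1.12 and 1.11 (limma adjusted p = 0.00048 and 0.031), and reads may be shared among such similar genes. The call of Ifi202b was lost without any 1 of the 6 libraries (adjusted p = 0.12 at most, without WT 3), and that of Ifi204 was lost without any 1 library except WT 1 (adjusted p = 0.14 at most, without WT 2). Of the 100 tested genes nearest to Klf15 in gene order 4 were called, Fam136a, Mrps25, Mgll and Podxl2, of which Mgll alone kept its call without any single P10 library. On the chromosome of Klf15 27 of 652 tested genes were called (4.14%), against 268 of 12330 elsewhere (2.17%), the highest share of 20 chromosomes, with the next at 3.65%.

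Oxct1, the enzyme that activates ketone bodies, singled out after its values were seen, was at 6135, 4636 and 5025 in KO and 6988, 10232 and 10411 in WT (adjusted p = 0.00066, limma).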
